A study of Mus musculus with 12 samples.

Results

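The mature arms of 2 related miRNA clusters, Mir23a-27a-24-2 and Mir23b-27b-24-1, were followed in exosomes released by mouse granulosa cells under iron loading. The members were chosen by name, as the arms listed for the hairpins of both clusters, and all 10 of them are among the 637 miRNA entries of the count tables. Small RNA was sequenced in 12 exosome libraries, and CON, FAC, DFO and VE have 3 libraries apiece. The source cells were primary granulosa cells from the ovaries of gonadotropin-primed female Kunming mice, grown for 48 h after 24 h of acclimation in a medium freed of exosomes. CON cells were untreated. The FAC, DFO and VE groups all received 100 μM ferric citrate, alone in FAC, with 100 μM of the iron chelator deferoxamine mesylate in DFO, and with 200 μM VITE, a lipophilic antioxidant, in VE. The age of the mice, and whether replicates came from separate animals or cultures, were not given in the sources used here, so p-values measure the spread between these libraries, which may be technical.

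Each cluster is transcribed as 1 precursor that carries a miR-23, a miR-27 and a miR-24 hairpin, and each hairpin can release a mature miRNA from its 5p and from its 3p side. The 3p arms are usually the abundant, functional products of these hairpins, and the bases at positions 2 to 8 of a mature miRNA, the seed, pair with target mRNAs. The family is known for roles in cell death, lipid metabolism and angiogenesis: miR-23 restrains mitochondrial glutaminase, miR-27 restrains the adipogenic factor PPARγ, and miR-24 restrains MYC and other cell cycle genes. The RefSeq annotation of GRCm38.p6 places the Mir23a cluster on chromosome 8 within 404 bases, outside any host gene. It places the Mir23b cluster on chromosome 13 within 792 bases, inside the gene Aopep. The submitters' notes name another build, mm9, and positions are therefore not given.

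The RefSeq table held the mature sequences of 9 of the 10 members, the exception being miR-23b-3p. They are shown because they tell between which arms reads could be shared, and capitals mark the seed.
mmu-miR-23a-3p: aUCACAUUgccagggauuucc
mmu-miR-27a-3p: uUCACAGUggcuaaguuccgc
mmu-miR-27b-3p: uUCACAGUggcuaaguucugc
mmu-miR-24-3p: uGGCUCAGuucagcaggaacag
mmu-miR-23a-5p: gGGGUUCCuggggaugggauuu
mmu-miR-23b-5p: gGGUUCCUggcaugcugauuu
mmu-miR-27a-5p: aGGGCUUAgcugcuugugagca
mmu-miR-27b-5p: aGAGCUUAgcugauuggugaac
mmu-miR-24-2-5p: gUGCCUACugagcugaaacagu
miR-27a-3p and miR-27b-3p have the same seed and differ at 1 base, C19U, with positions counted from the 5′ end of miR-27a-3p. miR-24-3p is a single entry that both clusters encode, so its reads cannot be given to either cluster. The 5p arms of miR-27 are less alike: miR-27a-5p and miR-27b-5p differ at 8 of 22 bases and have different seeds. The 5p arms of miR-24 are closer: miR-24-2-5p has the same seed as miR-24-1-5p, the arm of Mir24-1, which is not a member. How reads that match several miRNAs were counted is not given in the sources used here, so the split of reads between the a and b paralogs is uncertain. miR-3074-5p, encoded opposite to miR-24, shares 20 bases with the reverse complement of miR-24-3p, and strand handling is not given either. It had 1.91% to 5.31% of the counts of miR-24-3p in a library.

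The miRNA counts of a library summed to between 452021 and 7565362. This was 1.997% to 4.998% of the library total in CON, 21.6% to 30.4% in FAC, 5.53% to 19.9% in DFO and 9.20% to 14.6% in VE. That total was recovered by dividing counts by RPM, and whether it holds all reads or only mapped ones is not given in the sources used here. Levels are given as CPM, which divides by the sum of miRNA counts after TMM scaling, so a change is relative to the rest of the miRNAs. A level of 3 counts, the floor used here, was 0.351 CPM in the deepest library and 7.90 CPM in the shallowest, and floors and intervals cover counting error only. The lowest mode of the counts is here the highest peak of their distribution between 10 and 500 counts. It lay between 20.2 and 198 counts in a library. A peak under 10 counts could not be found by this search, and in small RNA counts the smallest values are usually the most frequent. The mode serves as a reference level only, and what set it was not tested. Among cell type markers, miR-202-5p, a gonadal miRNA, was at 0 in all 9 libraries outside FAC and in 2 FAC libraries. The 7 granulosa-linked miRNAs counted, miR-202-5p among them, together took 0.191% to 0.269% of the miRNA counts in CON and 0.138% to 0.406% in FAC. The range was 0.0964% to 0.164% in DFO and 0.123% to 0.157% in VE. Of these, miR-21a-5p had the highest means, 2060, 2059, 1107 and 1141 CPM in CON, FAC, DFO and VE. For miR-224-5p the means were 180, 397, 156 and 257 CPM, and miR-212-3p had no count outside FAC. Liver-enriched miR-122-5p took 4.77% to 17.1% of the miRNA counts. Blood-linked and liver-linked miRNAs together took 6.92%, 9.37% and 22.2% of the miRNA counts in FAC replicates 1 to 3. They took 13.4% to 16.6% in CON, 6.54% to 19.6% in DFO and 25.4% to 29.8% in VE. Every VE library lay above all libraries of the other groups, and the part of these miRNAs in the results was not tested.

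All arms of both clusters, with the 5p arm of Mir24-1 added to the 10 members, made up 0.374% ± 0.0972 (SD, n = 3) of the miRNA counts in CON, 1.08% ± 0.521 in FAC, 0.268% ± 0.0422 in DFO and 0.396% ± 0.0757 in VE. FAC replicates 1 and 2, with 1.33% and 1.43%, stood far above FAC replicate 3, with 0.480%, which was close to the 0.479% of VE replicate 2. The most abundant members in FAC were miR-24-3p, at 3510 ± 1352 CPM (SD, n = 3), and miR-27b-3p, at 2791 ± 1304 CPM. Then came miR-23a-3p, miR-27a-3p and miR-23b-3p. In FAC all 5p arms had lower means than all 3p arms. In the other groups miR-24-2-5p had a higher mean than miR-23b-3p, at 156 against 35.002 CPM in CON, 54.8 against 21.1 CPM in DFO and 240 against 158 CPM in VE. miR-23b-5p, at 92.1 CPM in CON and 117 CPM in DFO, also lay above miR-23b-3p there, as did miR-27b-5p in DFO, at 30.9 CPM.

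**Figure D1:**
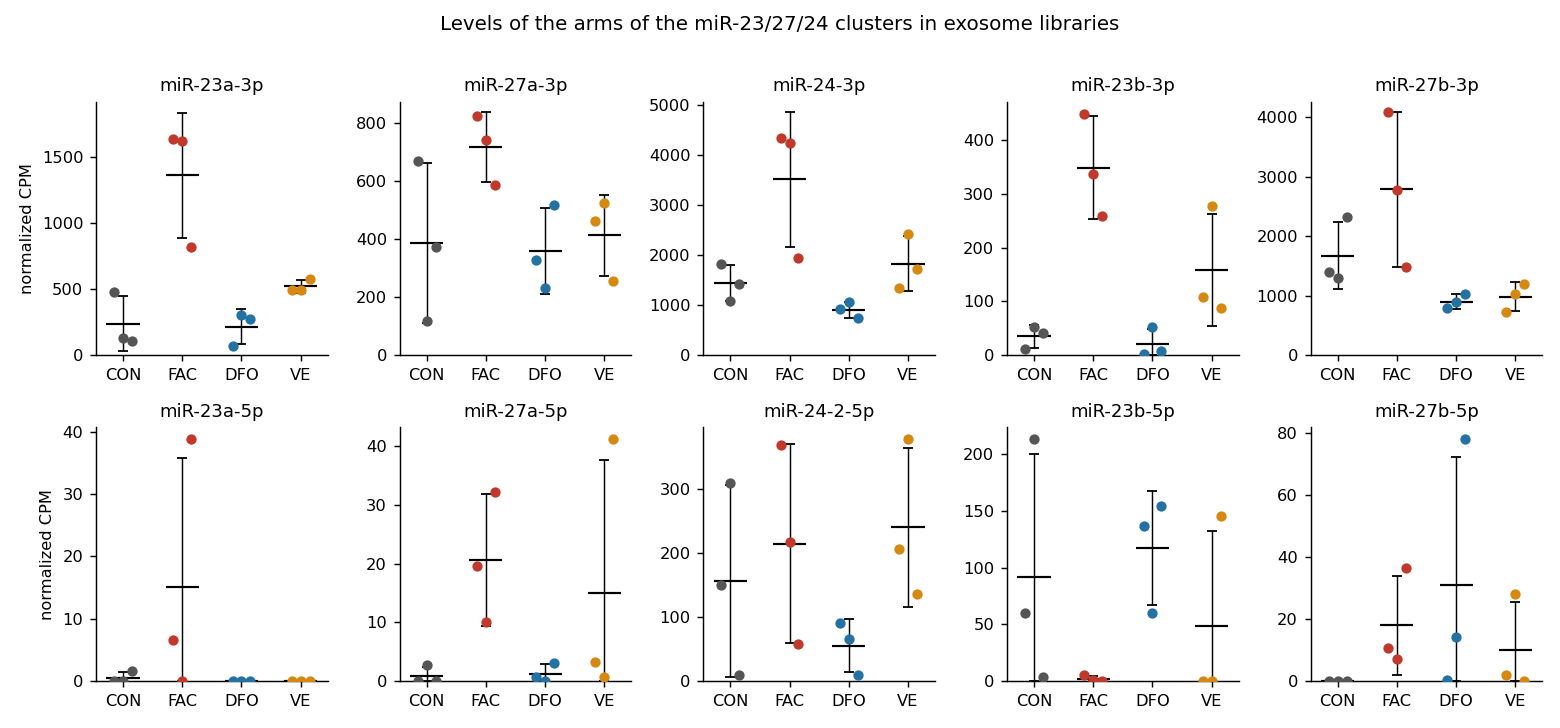
Normalized CPM of the 10 arms (y axis, linear, a scale for each panel) by treatment group (CON, FAC, DFO, VE). Points are libraries, lines the group means and bars the SD over 3 libraries, cut at 0. All 3 FAC libraries lie above all 3 CON libraries for miR-23a-3p, miR-24-3p, miR-23b-3p, miR-27a-5p and miR-27b-5p, while the FAC libraries of miR-23b-5p lie at or under 5.15 CPM.

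The comparison of FAC with CON asks how iron loading changed the exosomal miRNAs. Both miR-23 3p arms were higher in FAC. miR-23a-3p was at 480, 126 and 110 CPM in CON replicates 1 to 3 and at 1640, 1623 and 818 CPM in the FAC replicates, and the groups did not overlap. Its log2 fold change was 2.51 (standard error 0.89), past the threshold used, a fold of at least 1.5 and an unadjusted p under 0.05, with an adjusted p of 0.135 in edgeR's quasi-likelihood test. miR-23b-3p, its paralog, was at 11.5, 52.7 and 40.9 CPM in CON and at 450, 338 and 260 CPM in FAC, again with no overlap. Its log2 fold change of 3.33 (standard error 1.34) was also past the threshold, with an adjusted p of 0.258 in edgeR. Both calls held with each library of CON or FAC left out in turn. In CON, miR-23b-3p rested on 14, 20 and 26 counts, all under the lowest mode of their library.

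The other 3p arms differed by less and did not pass the threshold. miR-24-3p was at 1815, 1090 and 1426 CPM in CON and at 4345, 4235 and 1951 CPM in FAC, where the lowest FAC library stood just above the highest CON library. The log2 fold change of 1.28 had a standard error of 0.66 and an adjusted p of 0.531 in edgeR. It passed the threshold without CON replicate 1 (1.48), CON replicate 3 (1.46) or FAC replicate 3 (1.60). The miR-27 arms overlapped between the groups, with 118 to 669 CPM in CON and 585 to 824 CPM in FAC for miR-27a-3p and 1301 to 2319 against 1491 to 4098 CPM for miR-27b-3p. Their log2 fold changes were 0.89 (standard error 0.88) and 0.74 (standard error 0.68).

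The 5p arms were near or under the floor in many libraries. miR-23b-5p moved the other way from its 3p partner: it was at 59.8, 213 and 3.14 CPM in CON and at 5.15, 0.534 and 0 CPM in FAC. It was called lower in FAC, with a log2 fold change of -5.56 (standard error 1.85, adjusted p = 0.103 in edgeR), although CON replicate 3 lay inside the FAC range. The counts behind this were 73, 81 and 2 in CON and 44, 4 and 0 in FAC, at most 1.06 times the lowest mode of their library. Scaled to library read totals its log2 fold change was -1.78, and in limma on log2(RPM + 1) it was -0.87, neither past the threshold.

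miR-27b-5p had no count in the 3 CON libraries and 90, 52 and 179 counts in FAC, which made it at least 3.57-fold higher in FAC, with the floor of 3 counts in each CON library. Without FAC replicate 3 the bound was 1.74-fold. It passed the threshold with an adjusted p of 0.470 in edgeR, and lost the call with any 1 CON library or FAC replicate 3 left out. The FAC counts were 0.909 to 2.57 times the lowest mode. miR-27a-5p had 1 count in all of CON and 167, 75 and 159 counts in FAC, a ratio of 42.8 with a 95% counting interval from 7.64 to 1695. miR-23a-5p also had 1 count in all of CON and had 56, 0 and 191 counts in FAC, a ratio of 26.4 with an interval from 4.69 to 1046. Neither was past the threshold. miR-24-2-5p was at 9.43 to 308 CPM in CON and 57.3 to 368 CPM in FAC, with a log2 fold change of 0.46 (standard error 1.17) that turned to -0.20 without FAC replicate 1.

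Of the 10 members, 3 were past the threshold as higher in FAC, against 2.38% of the 547 tested entries, and 1 as lower, against 7.13%. All 10 passed the filter of 10 counts over the 12 libraries, but miR-23a-5p, miR-27a-5p and miR-27b-5p had at most 1 count in CON and passed it through the treated groups, so counts and medians over the members are a description. FAC lay wholly above CON for 5 of the 10 members, against 10.1% of all tested entries. The median log2 fold change was 1.89 over the members, or 1.56 with miR-27b-5p at its bound, and 1.38 over all tested entries. That median of all entries was 1.24 with RLE size factors, 1.70 with total miRNA counts and 4.35 with library read totals. Of all calls, 25.0% were higher in FAC under TMM, 16.4% with RLE size factors, 44.2% with total miRNA counts and 100% with library read totals. Relative to the median of all entries under TMM, miR-23a-3p was 1.13 and miR-23b-3p 1.95 higher on the log2 scale, while miR-24-3p (-0.10), miR-27a-3p (-0.49) and miR-27b-3p (-0.64) lay below it. With an adjusted p under 0.05 there were 0 members in edgeR (4 at an unadjusted p under 0.05), 2 in DESeq2 and 6 in limma on log2(RPM + 1), where 1, 21 and 114 of the 547 entries were. In an exact permutation test of a single member, 3 libraries against 3 cannot give a p under 0.1, which is 0.238 after adjustment over the 50 tests of members and comparisons.

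**Figure D2:**
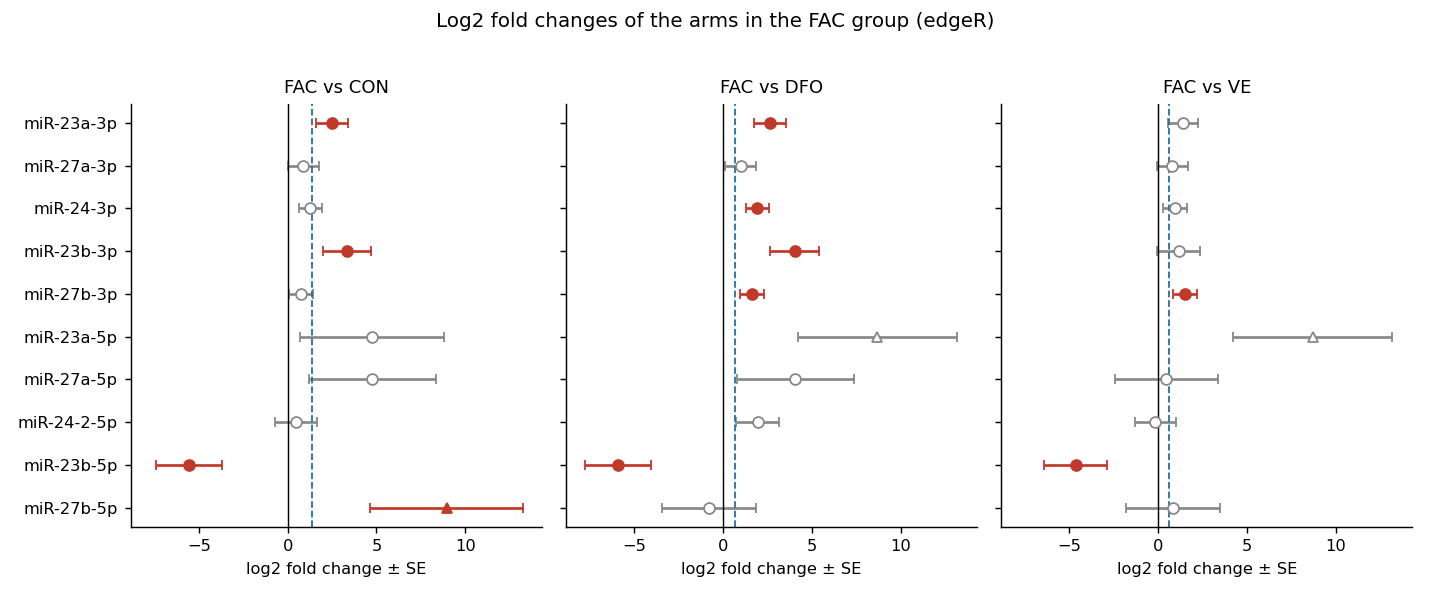
Log2 fold change (x axis) of each arm (y axis) in FAC against CON, DFO and VE, with bars of 1 standard error from edgeR. Filled red marks are past the threshold, triangles mark arms with no count in the second group (their fitted value depends on the prior count and is no bound), and the dashed line is the median of all 547 tested entries. The 3p arms of miR-23a and miR-23b lie right of that line in each panel, and miR-23b-5p lies left of 0.

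Against DFO, which adds the chelator to the same ferric citrate, all 5 3p arms were higher in FAC, and 4 of them passed the threshold. miR-23b-3p was at 2.76, 52.2 and 8.26 CPM in DFO, and all 3 FAC libraries lay above this range (log2 fold change 4.04, standard error 1.38, adjusted p = 0.124 in edgeR). miR-23a-3p was at 67.9, 307 and 274 CPM in DFO, with a log2 fold change of 2.65 for FAC (standard error 0.89, adjusted p = 0.114 in edgeR). miR-24-3p was at 924, 1064 and 745 CPM in DFO, with a log2 fold change of 1.95 (standard error 0.67, adjusted p = 0.125 in edgeR). For miR-23b-3p, miR-23a-3p and miR-24-3p the FAC and DFO libraries did not overlap, and their calls held with each FAC or DFO library left out.

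miR-27b-3p was at 787, 890 and 1027 CPM in DFO, also below every FAC library, and the difference was 1.63 on the log2 scale (standard error 0.69, adjusted p = 0.248 in edgeR). Without FAC replicate 1 it was 1.201 and no longer past the threshold. miR-27a-3p did not overlap between the groups either, with 327, 230 and 519 CPM in DFO, but its log2 fold change of 1.00 (standard error 0.89) did not pass. miR-23b-5p was again lower in FAC: it was at 137, 59.9 and 155 CPM in DFO, from 398, 334 and 206 counts, and all 3 FAC libraries lay below these, as they did for 6.58% of all tested entries (log2 fold change -5.91, standard error 1.88, adjusted p = 0.0879 in edgeR). miR-23a-5p, with no count in DFO, had 56, 0 and 191 counts in FAC and a FAC mean at least 11.9-fold higher, without passing the threshold. This bound rests on FAC replicate 3, without which it was 2.57-fold, and it was 19.2-fold without DFO replicate 3.

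The shares of all 547 entries past the threshold in this comparison were 4.75% higher and 7.5% lower in FAC, and the members gave 4 and 1 of 10. FAC lay above DFO without overlap for 6 of the 10 members, among them all 5 of the 3p arms, against 10.1% of all tested entries. The median log2 fold change was 1.95 over the members and 0.66 over all entries. Relative to that median, miR-23b-3p was 3.38, miR-23a-3p 1.99, miR-24-3p 1.29 and miR-27b-3p 0.97 higher on the log2 scale. With an adjusted p under 0.05 there were 0 members in edgeR with TMM (5 at an unadjusted p under 0.05), 1 with RLE size factors, 5 in DESeq2 and 4 in limma on log2(RPM + 1), where 5, 12, 43 and 18 of the 547 entries were. The median of all entries was 1.88 with library read totals, and the higher calls were 38.8% of all calls under TMM and 89.3% with those totals. The comparisons of FAC with CON, DFO and VE share the 3 FAC libraries.

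Against VE, which adds VITE to ferric citrate, 1 of the 3p arms passed the threshold. miR-27b-3p was at 727, 1025 and 1201 CPM in VE, below all 3 FAC libraries, with a log2 fold change of 1.503 (standard error 0.69, adjusted p = 0.446 in edgeR). The call was lost without FAC replicate 1 (1.27), VE replicate 1 (1.33) or VE replicate 2 (1.53). miR-23a-3p and miR-27a-3p also lay below FAC in all 3 VE libraries. miR-23a-3p was at 496, 490 and 577 CPM in VE, but its log2 fold change of 1.38 (standard error 0.85) was not past the threshold. It passed without FAC replicate 3 (1.82).

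miR-23b-3p spanned 88.0 to 278 CPM in VE and reached into the FAC range, with a log2 fold change of 1.15 (standard error 1.24). The values were 0.94 (standard error 0.66) for miR-24-3p, which passed without FAC replicate 3 (1.41), and 0.79 (standard error 0.88) for miR-27a-3p. miR-23b-5p was called lower in FAC, with a log2 fold change of -4.64 (standard error 1.77, adjusted p = 0.344 in edgeR), but 1 library decides this value. It had 0, 0 and 464 counts in VE replicates 1 to 3, and without VE replicate 3 its log2 fold change was 5.75 in the other direction and past the threshold. Without FAC replicate 2 it was -3.97 and not past the threshold.

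Of all tested entries, 4.39% were past the threshold as higher and 4.94% as lower in FAC than in VE, and the members gave 1 of 10 each way, or 3 higher and 1 lower without FAC replicate 3. With FAC replicate 1, FAC replicate 2, VE replicate 1 or VE replicate 2 left out, 1 member passed in all. FAC lay above VE for 3 of 10 members, against 9.87% of all tested entries. The median log2 fold change was 0.89 over the members and 0.63 over all entries, or 0.95 with total miRNA counts and 1.88 with library read totals. Higher calls were 47.1% of all calls under TMM, 61.2% with total miRNA counts and 91.4% with library read totals. With an adjusted p under 0.05 there were 0 members in edgeR (2 at an unadjusted p under 0.05), 1 in DESeq2 and 0 in limma on log2(RPM + 1), where 2, 19 and 0 of the 547 entries were.

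The comparisons of DFO and VE with CON share the 3 CON libraries and ask how far the treated cells stood from untreated ones. Against CON, 1 member passed the threshold in DFO, miR-27b-5p, with 1, 79 and 104 counts in DFO and none in CON, at least 6.14-fold higher over the floor (adjusted p = 0.599 in edgeR). Without DFO replicate 3 the bound was 1.44-fold. The call was lost with any 1 CON library or DFO replicate 3 left out. No member passed at an adjusted p under 0.05 in edgeR, where 3 of the 547 entries did. In this comparison 2.74% of all tested entries were past the threshold as higher and 4.94% as lower in DFO. miR-27b-3p and miR-24-3p, the most abundant members, lay lower in all 3 DFO libraries than in all 3 CON libraries, as did 2.19% of all tested entries, with log2 fold changes of -0.89 (standard error 0.68) and -0.66 (standard error 0.65) that did not pass the threshold. The median log2 fold change was -0.40 over the members and 0 over all entries. Of the members, 3 had a value above 0 under TMM scaling and 9 when scaled to library read totals, so the direction of the family depends on the scaling. With library read totals the median of all entries was 1.45, and higher calls went from 35.7% of all calls to 96.8%.

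For VE against CON, 0 members passed in edgeR at an unadjusted or an adjusted p under 0.05, where 11 of the 547 entries had an adjusted p under 0.05. In DESeq2 3 members and 65 of all entries were past the threshold, and in limma on log2(RPM + 1) 5 members and 97 of all entries. Leaving out CON replicate 1 gave 1 member, VE replicate 1 gave 1 and VE replicate 3 gave 2. The shares of all tested entries past the threshold were 3.29% higher and 7.13% lower in VE. miR-23a-3p and miR-23b-3p lay higher in all 3 VE libraries than in all 3 CON libraries, as did 8.04% of all tested entries, with log2 fold changes of 1.12 (standard error 0.85) and 2.18 (standard error 1.28). Without CON replicate 1, the highest CON library of miR-23a-3p, its log2 fold change was 2.14 and passed. miR-27b-3p lay lower in all 3 VE libraries than in CON, as did 4.94% of all tested entries, with a log2 fold change of -0.77 (standard error 0.68). Of the members, 7 were above 0 under TMM, 6 with RLE size factors and 9 with library read totals. Higher calls were 31.6% of all calls under TMM, 17.2% with RLE size factors and 89.0% with library read totals, where the median of all entries was 0.99, against 0 under TMM.

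By mean level, miR-23a-3p ran from 1360 ± 470 CPM (SD, n = 3) in FAC through 521 ± 48.8 CPM in VE to 239 ± 209 CPM in CON and 216 ± 130 CPM in DFO. The neighbours CON and DFO overlapped and differed by less than their spread, and VE and CON differed by little more than a library, since the highest CON library was at 480 CPM and the lowest VE library at 490 CPM. miR-23b-3p had the same order, with 349 ± 95.4 CPM (SD, n = 3) in FAC, 158 ± 104 CPM in VE, 35.002 ± 21.2 CPM in CON and 21.1 ± 27.1 CPM in DFO, where FAC and VE overlapped, as did CON and DFO. miR-24-3p had this order as well, and its VE and CON libraries overlapped. miR-27b-3p had another: CON, at 1675 ± 561 CPM (SD, n = 3), came second behind FAC, with which it overlapped, and lay above VE, at 984 ± 240 CPM, and DFO, at 901 ± 120 CPM, which overlapped each other.

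The ratio of 3p to 5p counts of a hairpin shows which arm prevailed in a library, and it needs no scaling between libraries. In the miR-23b hairpin the prevailing arm differed between FAC and DFO, and it also differed between the libraries within CON and within VE. Its 3p counts depend on how reads were split from miR-23a-3p, which is uncertain. The 3p arm held 16.1%, 19.8% and 92.9% of the hairpin's counts in CON, with 95% Wilson intervals of 9.83% to 25.2%, 13.2% to 28.6% and 77.4% to 98.0%. In FAC it held 98.9%, 99.8% and 100%, and the lowest bound of their intervals was 98.5%. In DFO it held 1.97%, 46.6% and 5.07%, below every FAC library. In VE replicates 1 and 2 no 5p count was found, so that the intervals for the 3p share start at 98.4% and 99.5%, and in VE replicate 3 the 3p arm held 37.6%. Thus 5p counts outnumbered 3p counts in 2 CON, 3 DFO and 1 VE libraries, and in 0 FAC libraries.

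On the log2 scale, with 0.5 added to each count, the 3p to 5p ratio of miR-23b was -0.31 ± 3.22 (SD, n = 3) in CON, 8.96 ± 2.45 in FAC, -3.31 ± 2.78 in DFO and 6.25 ± 6.10 in VE. FAC exceeded CON by 9.27 (standard error 2.88, adjusted p = 0.383 in limma over 107 hairpins) and DFO by 12.27 (standard error 2.88, adjusted p = 0.0503), both past the threshold. When 1 of the libraries compared was left out, the difference from CON lay between 8.09 and 11.1 and that from DFO between 11.1 and 13.8, and both stayed past it. VE exceeded CON by 6.56 (standard error 2.88, adjusted p = 0.493 in limma), past the threshold. This call was lost without CON replicate 1, CON replicate 2, VE replicate 1 or VE replicate 2, with the 2 groups fitted alone, and in edgeR's diffSpliceDGE, where the difference was 3.11. The difference of FAC and VE, 2.72 (standard error 2.88), did not pass. Without VE replicate 3 it was -0.77, and in diffSpliceDGE it was 5.80 and past the threshold. The 5p counts behind these ratios were at most 4.17 times the lowest mode of their library. The 3p counts were 0.131 to 0.204 times the mode in CON, 0.0572, 3.19 and 0.116 times in DFO replicates 1 to 3, 2.43 to 8.71 times in VE and 6.50 to 125 times in FAC.

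The other hairpins were led by the 3p arm in all libraries. The 3p arm held at least 95.5% of the counts of miR-23a, 86.2% of those of miR-27a and 92.9% of those of miR-27b. In FAC the log2 ratio was lower than in CON by values that did not pass the threshold, -2.91 (standard error 1.95) for miR-27a and -3.55 (standard error 2.05) for miR-27b, whose ratio in CON rests on the 0.5 added to 5p counts of 0. Without CON replicate 2 the value of miR-27a was -4.53 and passed. For miR-23a the difference was 1.52 (standard error 2.22) and turned to -1.28 without FAC replicate 2, the library with 12155 counts of the 3p arm and no count of the 5p arm. No ratio was tested for a hairpin of miR-24, since the 3p counts come from both clusters. miR-24-1-5p had 54 counts in FAC replicate 1, 1 count in VE replicate 3 and none elsewhere.

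Of the 4 hairpins, 1 was past the threshold between FAC and CON, where 5.61% of the 107 tested hairpins were, and 2 did not overlap, miR-23b and miR-27b, as did 13.1%. Between FAC and DFO 1 was past it, against 15%, and 2 did not overlap, miR-23b and miR-27a, against 15.9%. Between FAC and VE 0 of 4 passed against 14%, between DFO and CON 0 of 4 against 2.8%, and between VE and CON 1 of 4 against 9.35%. Leaving out 1 library gave 2 of 4 for FAC against CON (CON replicate 2), 1 for FAC against VE (FAC replicate 2), 1 for DFO against CON (DFO replicate 1) and 0 for VE against CON (CON replicate 2, VE replicate 1 or VE replicate 2). In an exact permutation test the differences of miR-23b between FAC and CON and between FAC and DFO gave p = 0.1, which groups of 3 cannot undercut, with an adjusted value of 0.4 for the 20 tests made.

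**Figure D3:**
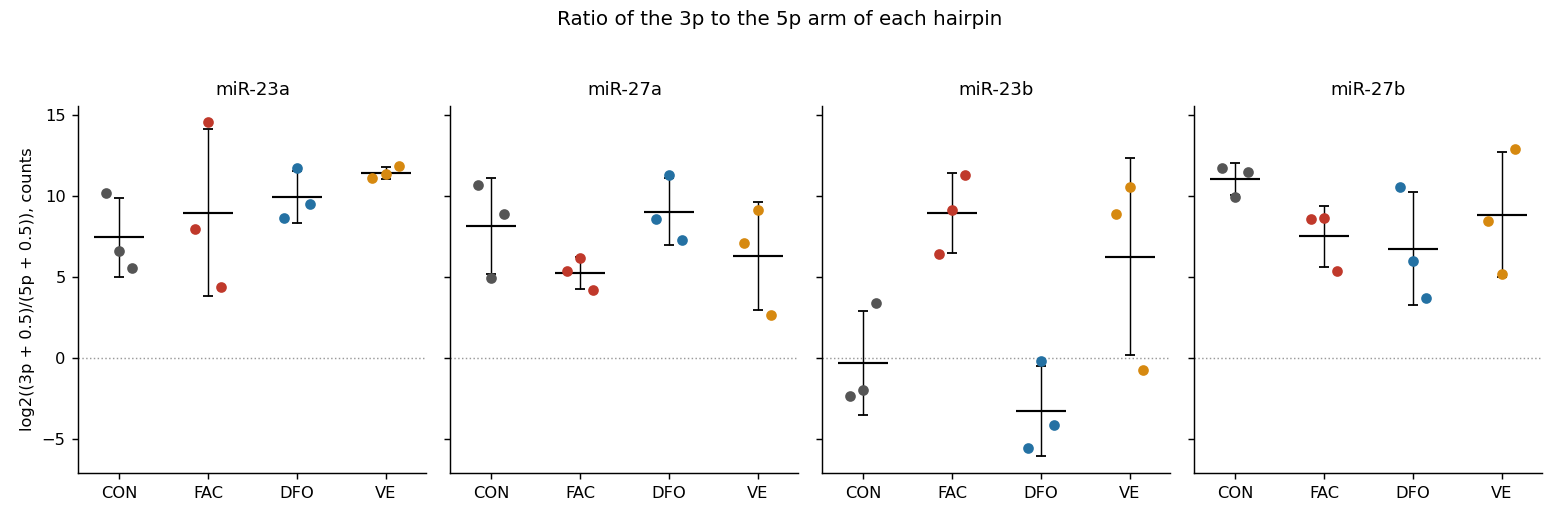
Log2 ratio of 3p to 5p counts, each with 0.5 added (y axis), for the hairpins of miR-23a, miR-27a, miR-23b and miR-27b in the 4 groups. Points are libraries, lines the means and bars the SD over 3 libraries, and the dotted line marks equal arms. Only the panel of miR-23b has libraries below the dotted line, 2 in CON, 3 in DFO and 1 in VE.

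Within the libraries the paralogs kept opposite orders. miR-23a-3p exceeded miR-23b-3p in all 12 libraries, from 1.76 times in VE replicate 2 to 40.4 times in CON replicate 1, with a mean log2 ratio of 2.63 ± 1.51 (SD, n = 12). For miR-27 the b copy was higher in all 12 libraries: the mean log2 ratio of miR-27a-3p to miR-27b-3p was -1.73 ± 0.825 (SD, n = 12), and miR-27a-3p was at 0.0920 to 0.635 times miR-27b-3p. Both had p = 0.000488 in a two-sided exact sign-flip permutation test over the 12 libraries, the smallest it can give. Leaving out any library kept the mean log2 ratios between 2.39 and 2.80 and between -1.83 and -1.58. The test treats libraries of all groups alike, and the split of reads between the paralogs is uncertain, so these orders are orders of the counts only. The arms of the Mir23a cluster, summed without miR-24-3p, had a mean log2 ratio of -0.62 ± 0.720 (SD, n = 12) to those of the Mir23b cluster, with p = 0.00781 in the same exact permutation test. They were fewer in 10 of 12 libraries, and more in VE replicates 1 and 2. With any library left out the mean lay between -0.72 and -0.47, with an exact permutation p of at most 0.0156.

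The ratios between the paralogs also varied within groups. The log2 ratio of miR-23a-3p to miR-23b-3p was 5.34, 1.24 and 1.41 in CON replicates 1 to 3 and 1.87, 2.26 and 1.65 in FAC. In DFO it was 4.54, 2.56 and 4.99, above all 3 FAC libraries, and in VE it was 2.20, 0.82 and 2.71. The copies of miR-27 had their lowest log2 ratio, -3.44, in CON replicate 2 and their highest, -0.66, in VE replicate 1. Of the 15 exact permutation tests of these ratios between groups, 1 reached the smallest p, 0.1, which was FAC against DFO for miR-23, and its adjusted p was 0.562. miR-24-3p, which both clusters encode, made up 26.4% to 47.1% of the counts of all arms in a library, and its group means were 35.6% ± 3.45 (SD, n = 3) in CON, 38.8% ± 3.22 in FAC, 35.2% ± 7.61 in DFO and 42.8% ± 3.77 in VE.

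**Figure D4:**
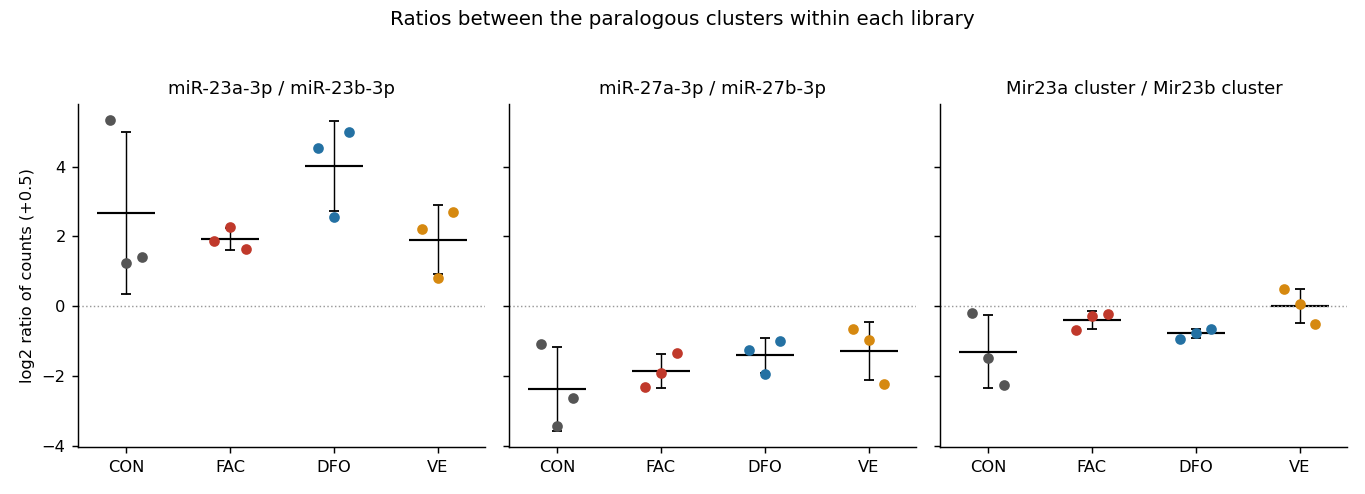
Log2 ratio of counts (y axis) of miR-23a-3p to miR-23b-3p, of miR-27a-3p to miR-27b-3p and of the summed arms of the Mir23a cluster to those of the Mir23b cluster in the 4 groups. Points are libraries, lines the means and bars the SD over 3 libraries, and the dotted line marks equal counts. All points of miR-23 lie above the line, all of miR-27 below it, and the summed clusters lie above it only in VE replicates 1 and 2.

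As a description over the 12 libraries, which share the scaling and the difference between groups, the log2 CPM of the 3p arms moved together to unequal degrees. Pearson's r with miR-23a-3p was 0.81 for miR-24-3p, 0.76 for miR-23b-3p, 0.66 for miR-27a-3p and 0.51 for miR-27b-3p, where the median over 546 tested entries was 0.25. The arms of the miR-23b hairpin ran opposite to each other, with an r of -0.71. The entries outside the clusters most like miR-23a-3p were miR-532-5p (r = 0.91), miR-140-3p (0.90), miR-181d-5p (0.87), miR-30d-3p (0.86) and miR-221-3p (0.85). Those most like miR-23b-3p were miR-99a-5p (0.89), let-7c-1-3p (0.87), miR-30a-3p (0.82), miR-1945 (0.77) and miR-212-5p (0.77), and the median r with miR-23b-3p was 0.21. Of the miRNAs in the RefSeq table that have the seed of a member and lie outside the clusters, none is among the entries counted.

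Other miRNA clusters were counted in the same fit. The 15 tested arms were of the miR-17-92, miR-106b-25, miR-15b-16, miR-143-145, miR-181 and miR-221-222 clusters. Of the 15, 2 were past the threshold as higher in FAC than in CON, against 2.38% of the 547 tested entries. Past it as higher than in DFO were 3, against 4.75%, and as higher than in VE 1, against 4.39%. In these comparisons 0 were lower, against 7.13%, 7.5% and 4.94% of all tested entries. The median log2 fold changes of these 15 arms were 1.98, 0.77 and 0.89. They stand beside 1.89, or 1.56 with miR-27b-5p at its bound, 1.95 and 0.89 for the miR-23, miR-27 and miR-24 arms. Among the 15 arms, miR-17-5p, miR-19b-3p and miR-20a-5p had no count in CON, and miR-106b-5p had none in DFO or VE. They passed the filter through other groups and their fitted values depend on the prior count, so counts and medians over the 15 arms are a description. The difference between the sets was not tested.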

How the data were processed

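Small RNA of granulosa cell exosomes was sequenced in 12 libraries with reads of 15 to 41 bp. The authors deposited counts of 637 miRNA entries for each library, and the same values as RPM, relative to a library total of 22631206 to 24845945 reads that dividing counts by RPM recovered. The submitters' notes name the build mm9. The aligner and the miRNA database are not given in the sources used here. Groups came from the labels, with 3 libraries each. The members and lists were chosen with earlier results of these data known.

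edgeR 4.0.16 was used on the counts with TMM, the quasi-likelihood test and 4 groups in 1 fit, for 547 entries with at least 10 counts in all. The threshold was the study's, a fold of 1.5 and p under 0.05, taken as unadjusted, with Benjamini-Hochberg adjusted p-values beside it. Arm ratios, log2 of counts with 0.5 added, were tested with limma 3.58.1 on 107 of the 127 hairpins with both arms, those with at least 10 counts of each arm. Single values were tested by exact permutation, computed with NumPy 2.4.6, and SciPy 1.17.1 gave the Wilson and counting intervals. Wilson intervals cover 95%. The lowest mode was found by kernel density on log2-transformed counts, searched between 10 and 500 counts with a bandwidth of 0.18, settings chosen after seeing the counts. For Pearson's r the prior count of log2 CPM was 2. The text names the members, the 5 entries outside the clusters most like miR-23a-3p and the 5 most like miR-23b-3p, and markers of granulosa and other cell types. The scripts were tested on simulated data. Sequences and loci are from RefSeq (GRCm38.p6). No 2 libraries had like counts, since the lowest chi-square per degree of freedom over the 66 pairs was 102. The alternatives were other scalings, filters, pseudocounts and tools (DESeq2 1.42.0 among them), fits of the 2 compared groups alone, the replicate number as a block, and leaving out each library.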

Additional observations from a re-analysis of the deposited data

How the results depend on the processing

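Members past the threshold numbered 4 for FAC against CON, 5 against DFO and 2 against VE. Of all entries tested, 9.51%, 12.2% and 9.32% passed it, and the percentages in parentheses give that share under each other setting. Scaled to library read totals the members were 8, 8 and 6 (29.1%, 13.7% and 14.8%), in limma with a pseudocount of 1 RPM 9, 9 and 6 (35.6%, 22.5% and 18.8%), with one of 0.1 RPM 9, 9 and 5 (35.1%, 21.0% and 16.6%), and with 10 counts in every library, where 4 members remain testable, 2, 3 and 1 (29.4%, 41.2% and 11.8%). Against VE they were also 4 with total miRNA counts, 4 in DESeq2 and 5 in a fit of the 2 groups alone (8.96%, 11% and 13.3%). For DFO against CON the 1 member became 0 with 10 counts in every library and with the 2 groups alone. For VE against CON the 0 members became 6 with library read totals, 3 in DESeq2, and 5 in limma with either pseudocount (10.4% of all entries became 21.6%, 11.9%, 17.7% and 18.5%). With 1 library left out, the ranges were 3 to 4, 4 to 5, 1 to 4, 0 to 1 (DFO against CON) and 0 to 2 (VE against CON).

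Hairpins past the threshold went from 1 to 2 for FAC against CON and against DFO, in edgeR's diffSpliceDGE and with the 2 groups alone, from 0 to 2 for FAC against VE in diffSpliceDGE, and from 0 to 1 for DFO against CON in diffSpliceDGE and with 100 counts of each arm. With 1 library left out they stayed at 1 for FAC against DFO and ranged from 1 to 2 for FAC against CON and from 0 to 1 for FAC against VE, DFO against CON and VE against CON. The arm difference of miR-23a between FAC and CON turned to -2.06 in diffSpliceDGE and ranged from -1.28 to 3.81 with 1 library left out, and that of miR-23b between FAC and VE ranged from -0.77 to 4.88 and was 5.80, past the threshold, in diffSpliceDGE. The call of miR-23b between VE and CON was lost in diffSpliceDGE, where miR-27b passed, and with the 2 groups alone, where miR-23a passed. The log2 fold change of miR-24-2-5p between FAC and CON ranged from -0.20 to 1.65, and that of miR-23b-5p between FAC and VE from -7.10 to 5.75. The causes were not tested beyond the fewer entries or libraries that a setting holds.

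Of the fold changes under settings other than leaving out a library, 203 kept their side of the threshold, 48 came to pass it, 11 lost it and 0 turned. With 1 library left out, 129 kept it, 6 came to pass it, 13 lost it and 2 turned. Same-numbered libraries did not deviate together (mean r = 0.0042 over 18 pairs, -0.0020 over the 36 others, 4 of 12 libraries closest to their own number), so the numbers are not taken to pair the libraries. With the replicate number as a block, members past the threshold were 1 for FAC against VE and 0 for DFO against CON, and hairpins were 0 for VE against CON. The 3 CON libraries are the shallowest, and their floors of 3 counts were 2.46 to 7.90 CPM. The 5p counts of miR-23b were at most 4.17 times the lowest mode of their library.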
